A study of Homo sapiens with 14 samples.

Results

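The 32 genes described here carry DNA damage signals to the cell cycle: the sensors of broken or single-stranded DNA, the kinases ATM, ATR, CHEK1 and CHEK2, the chromatin mediators, the proteins that guard stalled forks, the regulators of p53, and the WEE1 and CDC25 switches of cell division. They were chosen by name, as rows of the deposited interval lists whose gene symbol was 1 of the 32, out of 20056 protein-coding symbols of the RefSeq table. All 32 had at least 1 interval near their start in a separate list, as did 17196 of the 20056 protein-coding symbols. The intervals come from chromatin immunoprecipitation with sequencing (ChIP-seq) of the transcription factors STAT5 (antibody C-17) and BCL6 (antibody N-3) in DLD-1, an established line of human colorectal adenocarcinoma cells. Control cells were transfected with an empty vector. Activator cells received pEGFP-C1199Tiam1, which codes for a part of the RAC activator TIAM1, with vehicle. Inhibitor cells were transfected with that plasmid too and kept for 16 h in 20 microM EHT 1864, a drug against RAC. Chromatin from every group was collected 20 h after transfection. RAC1 and its kinase PAK1 were thus meant to be active in the activator cells and blocked in the inhibitor cells by the drug. The labels name no selection of transfected cells, so a library can mix cells with and without the plasmid. The labels do not say whether libraries of 1 group came from separate cultures.

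In the DNA damage response, the kinase ATM is switched on at double-strand breaks through the MRE11-RAD50-NBN complex, and ATR is switched on at single-stranded DNA coated with RPA. Between them, ATM and ATR phosphorylate the effector kinases CHEK1 and CHEK2 and the histone H2AX, and they stabilise p53, which MDM2 and MDM4 otherwise hold down. Removal of CDC25 phosphatases and action of WEE1 then keep the cyclin-dependent kinases off until repair is done. BCL6, a repressor, and STAT5, which mostly activates, recognise similar DNA letters, and the title of the series names a BCL6/STAT5 switch and the DNA damage response.

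The series has 14 libraries in 6 groups, and 9 of them have values in the lists: 3 inhibitor BCL6 and 2 each of control BCL6, control STAT5 and activator STAT5. The 3 libraries of activator BCL6 and the 2 of inhibitor STAT5 are not analysed here. Each list gives intervals with 1 whole number per library, read here as a count of reads. The deposited distance, from the lower-coordinate end of an interval to a gene start, lies between 3000 bp upstream and 1000 bp downstream, and the other end can lie outside these limits. Control intervals could have their value in a single library, whereas all libraries of a treated list were at 2 or more; no value was 1. The number of intervals therefore does not compare binding between conditions, and the depth of the libraries is unknown. Values are the authors' own and are given in the order of the libraries. No list holds RNA or chromatin marks, so the identity of the cells could not be checked against markers.

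Nearly all 32 genes had control intervals of both proteins, 11 had an activator STAT5 interval and 0 an inhibitor BCL6 interval. The control BCL6 list held 29 of 32 (90.6%), beside 73.9% of protein-coding symbols, and lacked CHEK1, CHEK2 and RAD9A. The control STAT5 list held 31 of 32 (96.9%), beside 74.9%, and lacked MDM2. In activator STAT5 the 11 genes were 34.4% of the members, beside 26.1% of protein-coding symbols. They were ATR, CDC25B, GADD45A, H2AFX (the older symbol of H2AX), MDC1, MDM2, MDM4, PPM1D, RAD17, RAD50 and RPA1. The list of activator STAT5 intervals on control BCL6 peaks held 4 of 32 (12.5%), beside 7.43%. In inhibitor BCL6, where 3.3% of protein-coding symbols were present, and among inhibitor BCL6 intervals on control STAT5 peaks, where 0.863% were, no member was found. The members' shares thus lay above those of protein-coding symbols in both control lists and, by fewer percentage points, in activator STAT5. Among symbols with an interval in at least 1 separate list, the background was higher. It was 86.2% in control BCL6, 87.4% in control STAT5 and 30.4% in activator STAT5. No test was made of these differences. With only intervals within 1000 bp of the start, activator STAT5 held 5 members (15.6%), beside 14.5% of protein-coding symbols.

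**Figure D1:**
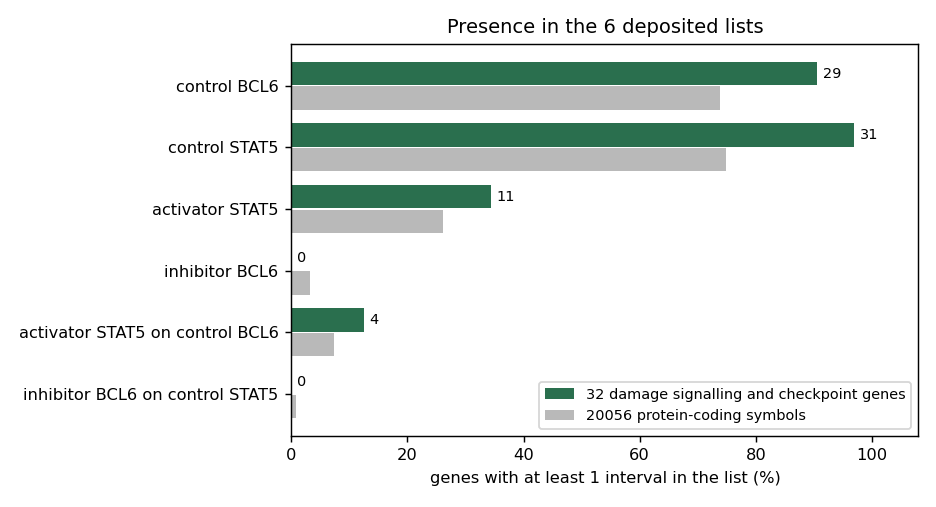
Share of genes (%) with at least 1 interval in each of the 6 lists, for the 32 damage signalling and checkpoint genes (green, with their number) and for 20056 protein-coding symbols (grey). The green bars are longer in both control lists (29 and 31 genes) and in the activator STAT5 lists (11 and 4), and are at 0 in both inhibitor BCL6 lists.

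In activator STAT5 the 11 genes were, by role, all 4 p53 regulators and targets (MDM2, MDM4, PPM1D and GADD45A), 2 of 5 chromatin mediators (H2AFX and MDC1) and 2 of 9 sensors (RAD17 and RAD50). The other roles had 1 gene each: ATR of 4 transducer kinases, RPA1 of 6 fork proteins and CDC25B of 4 cell cycle effectors. The other 21 genes, ATM, CHEK1 and CHEK2 among them, had none. The roles were set with earlier results of these lists known, so the full p53 group is a description. In the whole list, 0 activator STAT5 intervals overlapped a control STAT5 peak, which limits them to places where the control list had nothing. Distances below run from the deposited gene start, negative upstream.

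Among the sensors, RAD17 loads the checkpoint clamp at damaged DNA. Its interval at chromosome 5, 68664579 to 68664760, had 3 and 6 and lay at -546 to -365 bp. It was the only member interval with at least 3 in both libraries. The RAD50 interval lay inside the gene, at 723 to 821 bp (chromosome 5, 131892435 to 131892533), with 2 and 7, and is also listed for IL5. ATR, the replication stress kinase, had 3 and 2 in a 64 bp interval at -1116 to -1053 bp (chromosome 3, 142298721 to 142298784). RAD17 and ATR thus had intervals upstream of their starts and RAD50 one downstream, and RAD50 and ATR each had the lowest value, 2, in 1 library.

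Of the mediators, H2AFX had 2 and 7 in an interval of 301 bp at -1302 to -1002 bp (chromosome 11, 118967161 to 118967461). MDC1, the scaffold that binds H2AX once it is phosphorylated, had the lowest possible pair, 2 and 2, at -2258 to -2155 bp (chromosome 6, 30687821 to 30687924), in an interval also listed for TUBB. The fork protein RPA1, the largest subunit of the complex that coats single-stranded DNA, had 2 and 7 in an interval of 18 bp at 886 to 903 bp (chromosome 17, 1734153 to 1734170), which SMYD4 shares. Library 1 was at the lowest value at all 3 genes.

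In the p53 group, MDM2, the ubiquitin ligase of p53, had 2 and 5 at -1764 to -1654 bp (chromosome 12, 69200193 to 69200303). MDM4, its partner in holding p53 down, had 2 and 5 at -5 to 46 bp (chromosome 1, 204485507 to 204485558), the only member interval in this list to cover a gene start. PPM1D, the phosphatase that switches damage signalling off, had 2 intervals: 4 and 2 at -1837 to -1521 bp (chromosome 17, 58675718 to 58676034), and 2 and 2 at -283 to -84 bp (chromosome 17, 58677272 to 58677471). GADD45A, a growth arrest gene that p53 switches on, had 2 and 4 at -1831 to -1754 bp (chromosome 1, 68148914 to 68148991). Among the effectors, CDC25B, a phosphatase that starts mitosis, had 3 and 2 at -1175 to -1074 bp (chromosome 20, 3775212 to 3775313). The p53 group therefore held 5 of the 12 member intervals, of which 4 had the lowest value in library 1. The 12 intervals had a median width of 103 bp, beside 142 bp at protein-coding genes, and 2 of them (16.7%, beside 34.1%) had 2 in both libraries. By position, 7 of 12 (58.3%, beside 49.6%) were centred more than 1000 bp upstream.

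Promoter sequences are shown for MDM4 and PPM1D, the members whose activator STAT5 intervals reached into the 250 bases before the deposited gene start, and for TOPBP1, the only one of 26 members in the table with the STAT motif. They are from RefSeq (GRCh38.p14), run 5′ to 3′ on the strand of the gene and end at the base before the start; capitals mark the letters TTCNNNGAA. The intervals are in GRCh37, so no base of these sequences can be set against an interval end. The MDM4 window is chr1:204516156-204516455 on the plus strand, the PPM1D window chr17:60599943-60600242 on the plus strand, and TOPBP1's chr3:133661892-133662191 on the minus strand, each with 50 bases after the start that are not printed.
MDM4: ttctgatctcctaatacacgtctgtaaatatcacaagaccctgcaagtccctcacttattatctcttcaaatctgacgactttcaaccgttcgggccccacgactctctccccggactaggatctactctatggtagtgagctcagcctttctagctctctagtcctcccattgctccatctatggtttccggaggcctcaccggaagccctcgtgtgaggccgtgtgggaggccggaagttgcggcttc
PPM1D: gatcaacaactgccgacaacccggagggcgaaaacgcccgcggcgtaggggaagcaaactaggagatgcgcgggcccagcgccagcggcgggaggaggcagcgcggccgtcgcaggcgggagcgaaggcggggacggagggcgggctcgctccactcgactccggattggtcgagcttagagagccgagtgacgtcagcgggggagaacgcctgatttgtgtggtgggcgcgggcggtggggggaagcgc
TOPBP1 (29 bases around the motif): ggcccaagctTTCCCTGAAgccccaccgc

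The letters TTCNNNGAA, which read the same on both strands, are the core that STAT proteins recognise. They occurred in 1 of the 42 promoter windows of 300 bases found for 26 members (2.38%), at -126 bp in TOPBP1, and in 6.79% of 22199 windows of protein-coding genes. The stricter TTCCTNGAA, searched on both strands as a BCL6-like form contained in the first, occurred in 0 of 42, beside 1.3%. MDM4 and PPM1D had neither. TOPBP1, which activates ATR, had no activator interval, and its control STAT5 peak lay upstream of this window, at -1888 to -863 bp by the deposited gene start. These letters were looked for in this window only, and most member intervals lie outside it. Several members had more than 1 window, some of them overlapping, so the shares of windows are not shares of genes. The promoter windows of members had a median of 63.5% G and C, beside 62.3%. No promoter window was found for HUS1, NBN, WEE1, RPA2, RPA3 and GADD45A.

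**Figure D2:**
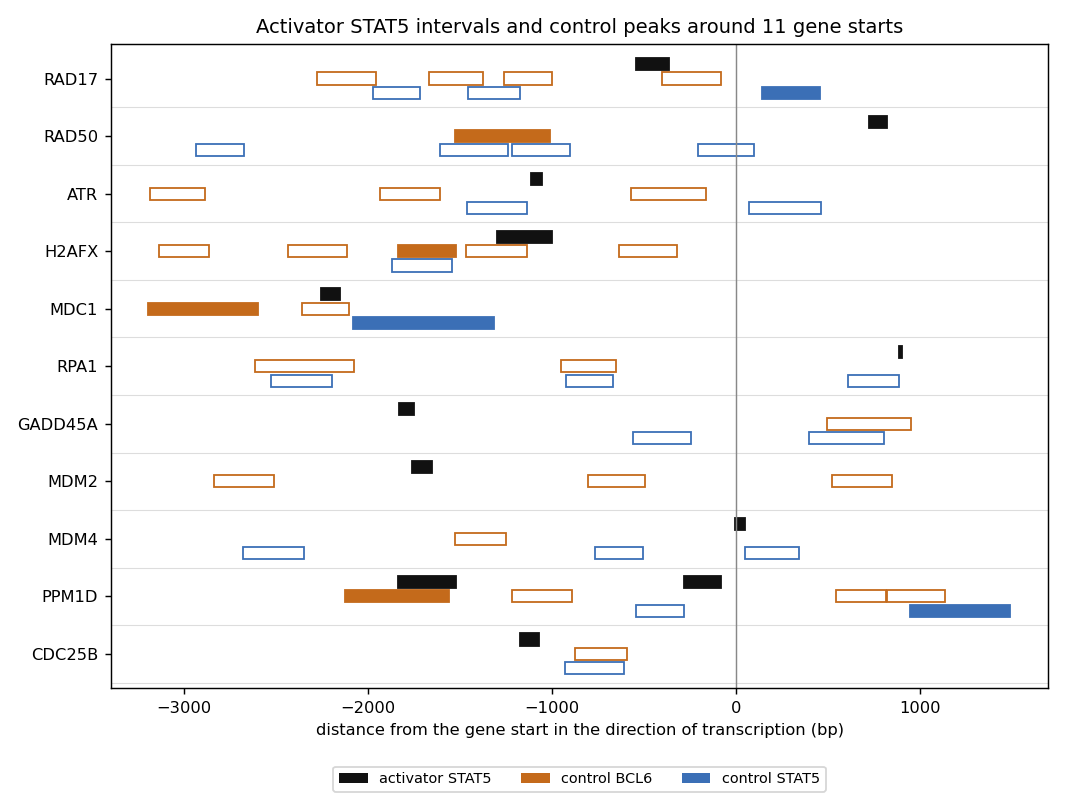
Positions of intervals around the starts of the 11 genes with an activator STAT5 interval; the x axis is the distance from the gene start in bp, negative upstream. Black is activator STAT5, orange control BCL6 and blue control STAT5; filled bars had a value in both libraries, open bars in 1. Black bars overlap orange ones at RAD17, H2AFX, MDC1 and PPM1D, and directly meet a blue one at RPA1, MDM4 and PPM1D.

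The activator libraries were unequal at the members. Library 2 had the higher value at 7 of 12 member intervals (58.3%) and library 1 at 3, and 2 were equal. Of 6284 intervals at protein-coding genes, library 2 was higher at 2425 (38.6%) and library 1 at 1390, and 2469 were equal. Ties were thus more common at protein-coding genes. The member values summed to 29 in library 1 and 51 in library 2. Over all intervals of the list the sums were 37629 and 44216, and library 2 also had the higher sum in control BCL6 (84510 and 97187) and control STAT5 (81105 and 100945). The highest member value, 7 in library 2, was reached at 3 of 12 intervals (H2AFX, RAD50 and RPA1), beside 5.24% of those at protein-coding genes, a limit set after the values were seen. In library 1 the same 3 intervals had 2, the lowest value a treated list contains, and 8 of the 12 had it (66.7%, beside 65.1%). Without library 1, 7 of the 11 genes kept a value of at least 3, and without library 2, 4 did. Requiring at least 3 in both libraries left RAD17 alone, 3.12% of members beside 5.25% of protein-coding symbols. The presence of the other 10 genes rested on the lowest value in at least 1 library.

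**Figure D3:**
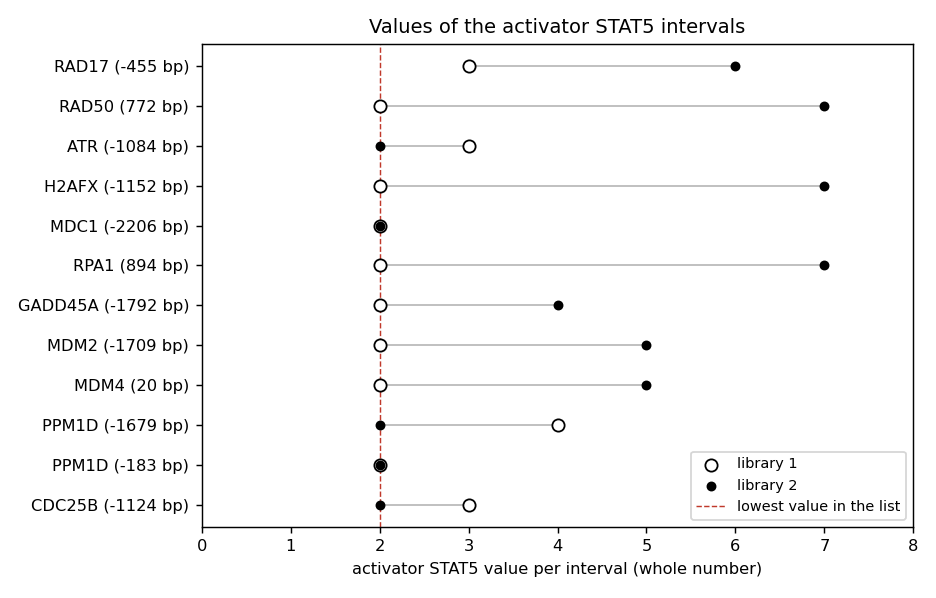
Value of each of the 12 activator STAT5 intervals in library 1 (open circles) and library 2 (filled circles), with the distance of the interval's middle from the gene start in the labels. The dashed line is 2, the lowest value in the list; library 2 reaches 7 at RAD50, H2AFX and RPA1, where library 1 is at 2.

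Contact with control STAT5 peaks was measured because treated lists share no base with the control list of the same antibody. At 3 of 12 member intervals (25%, beside 19% at protein-coding genes) no base lay between the activator interval and a control STAT5 peak. The MDM4 interval ended at 204485558 and the control peak began at 204485559 with values of 0 and 2. The second PPM1D interval began at 58677272, directly after a control peak with 2 and 0 that ended at 58677271. The RPA1 interval followed a control peak with 0 and 2 that ended at 1734152. At ATR and MDC1 the gap was 18 and 72 bp, so that 5 of 12 lay within 100 bp (41.7%, beside 28.3%). None of the 3 directly touched peaks had a value in both control libraries, and 9.34% of all control STAT5 intervals did. Whether these 5 intervals are separate sites or the flanks of control peaks was not tested.

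The activator interval lay far from control STAT5 peaks at 2 genes. At GADD45A 1196 bp lay between them, and at MDM2 59763 bp, with the nearest peak listed for SLC35E3. These 2 of 12 (16.7%) were over 1000 bp away, beside 31.1% of intervals at protein-coding genes. Of the 12 intervals, 4 (33.3%, beside 54.1%) were off control BCL6 peaks and over 100 bp from control STAT5 peaks: those at GADD45A, RAD50, MDM2 and CDC25B. At CDC25B the gaps were 145 bp to a STAT5 peak and 199 bp to a BCL6 peak.

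Activator STAT5 intervals overlapped control BCL6 peaks at RAD17, H2AFX, MDC1 and PPM1D. Whether BCL6 still bound there after activation was not measured in these lists. Of the 12 member intervals 4 lay on a control BCL6 peak (33.3%), beside 24.8% at protein-coding genes. PPM1D was the only one of them whose BCL6 peak had a value in both control libraries, 3 and 6, and the peak covered 278 bp (87.7%) of the interval. At H2AFX the BCL6 peak had 3 and 0 and covered 55.1%. At MDC1 it had 2 and 0 and covered the whole 104 bp. At RAD17 it had 4 and 0 and covered 38 bp, or 20.9%. Counting only BCL6 peaks that both control libraries held left 1 interval of 4. Over the whole control BCL6 list, 9.19% of intervals had a value in both libraries. The control BCL6 values are the same in the shared list as in the control list at these genes. The gap to the nearest control STAT5 peak was 979 bp at PPM1D, 507 bp at RAD17, 241 bp at H2AFX and 72 bp at MDC1.

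The control intervals at these genes mostly came from 1 library. Of the 57 control BCL6 intervals at members, 5 (8.77%) had a value in both libraries, beside 9.02% of those at protein-coding genes. Of the 69 control STAT5 intervals, 8 (11.6%) did, beside 9.68%. Asking for a value in both libraries left 5 members in control BCL6 (15.6%, beside 12.3% of protein-coding symbols) and 8 in control STAT5 (25%, beside 13.8%). In control BCL6, library 1 alone held 19 members (59.4%, beside 50.7%) and library 2 alone 23 (71.9%, beside 57.5%). In control STAT5, library 1 alone held 20 members (62.5%, beside 52.6%) and library 2 alone 30 (93.8%, beside 59.1%). The level of both control shares thus mostly rested on intervals that the other library did not repeat, for members and protein-coding symbols alike. In control STAT5, library 2 held more members than library 1. The members' shares stayed above those of protein-coding symbols under each of these settings, and no test was made.

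Among the sensors, RAD50, a subunit of the complex that holds broken ends, had a control BCL6 peak with values of 3 and 5 at -1527 to -1012 bp (chromosome 5, 131890185 to 131890700). Its 4 control STAT5 intervals had a value in library 2 only, the highest 4. RAD17 had 4 control BCL6 intervals, each from a single library, and a control STAT5 peak of 2 and 3 at 143 to 459 bp. It loads the checkpoint clamp, made of RAD9A, RAD1 and HUS1, onto DNA. RAD1 had 4 control STAT5 intervals and 1 of BCL6, and its STAT5 peak at 63 to 565 bp had 2 and 2. RAD9A had no BCL6 interval, and its 2 STAT5 intervals were at 0 in library 1 and at 2 and 4 in library 2. HUS1 had 0 and 2 in control BCL6 and at most 3 in control STAT5. The clamp genes thus had a repeated peak at RAD1 only. TOPBP1, which activates ATR, had 8 and 2 at a STAT5 peak 1026 bp wide, the widest control interval at any member, and 4 and 0 at a BCL6 interval inside it. The remaining sensors MRE11A, NBN and ATRIP, the partner that brings ATR to RPA, had no interval with a value in both libraries of either antibody.

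Of the transducer kinases, ATM was the only one with peaks repeated in both control libraries, and it had them for both antibodies. The BCL6 peak, with 3 and 3, lay at -1648 to -1157 bp from its start, and a STAT5 peak with 2 and 2 at -2324 to -2018 bp. A STAT5 interval with 2 and 0 lay inside the BCL6 peak over its whole 332 bp. ATR had 3 BCL6 intervals, the highest 0 and 4 at -570 to -165 bp, and 2 STAT5 intervals that both had 0 and 3. CHEK1 and CHEK2, the effector kinases, each had 2 control STAT5 intervals of at most 3 and no BCL6 interval within their windows.

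Among the chromatin mediators, MDC1, the scaffold that binds phosphorylated H2AX, had repeated peaks of both antibodies, 3 and 3 for BCL6 at -3198 to -2598 bp and 2 and 5 for STAT5 at -2082 to -1318 bp. Both peaks are also listed for TUBB. H2AFX had 5 control BCL6 intervals, the most of any member, 1 of them with 3 and 3 at -1840 to -1522 bp. Its only STAT5 interval, with 0 and 3, overlapped that peak. RNF8, RNF168 and TP53BP1, which build and read the ubiquitin mark at breaks, had single-library intervals only, the highest with 0 and 4 in control STAT5 at TP53BP1. The fork proteins CLSPN, RPA1, RPA2, RPA3, TIMELESS and TIPIN had single-library intervals only as well. RPA1 had the highest of these in control BCL6, 6 and 0 at -2616 to -2079 bp, and a STAT5 interval with 3 and 0 inside it. CLSPN, which couples ATR to CHEK1, had the highest in control STAT5, 0 and 5 at 535 to 864 bp.

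Among p53 regulators, PPM1D had 3 and 6 at a BCL6 peak and 7 and 2 at a STAT5 peak at 946 to 1488 bp. MDM2 had 3 BCL6 intervals from single libraries, of at most 3. MDM4 and GADD45A had no repeated control interval, and GADD45A had 0 and 5 in control BCL6 at 493 to 951 bp, inside the gene. Of the cell cycle effectors, WEE1, the kinase that holds back CDK1, had 4 and 2 in control STAT5 at 759 to 1369 bp. CDC25C, a phosphatase that opposes WEE1, had 2 and 2 at -581 to -250 bp. CDC25A and CDC25B had single-library intervals of at most 3. A control BCL6 interval overlapped a control STAT5 peak at 19 of the 32 genes (59.4%), beside 35.4% of protein-coding symbols. By interval, 24 of 57 control BCL6 intervals (42.1%) lay on a control STAT5 peak, beside 31% at protein-coding genes. In the other direction 23 of 69 STAT5 intervals (33.3%) did so on a BCL6 peak, beside 30.1%.

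**Figure D4:**
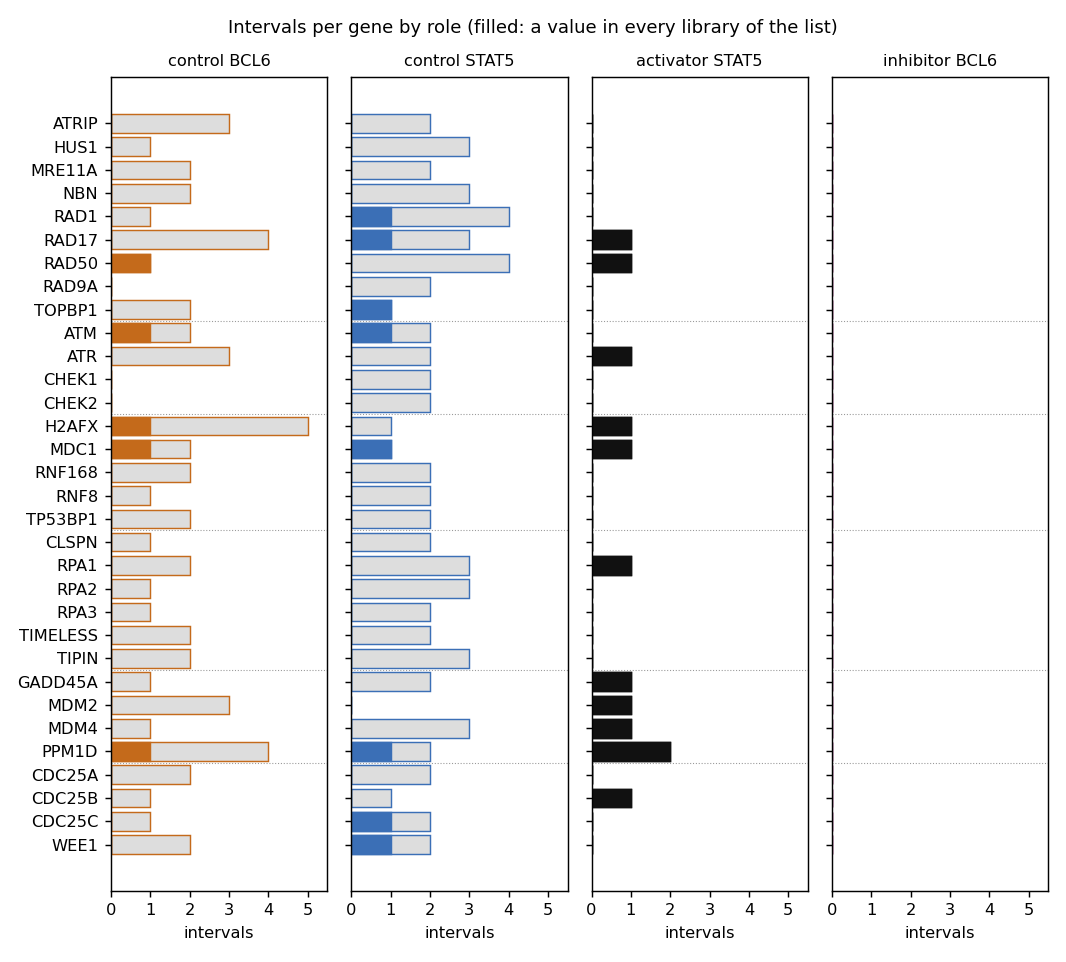
Number of intervals per gene (x axis) in the 4 separate lists, with genes ordered by role and roles parted by dotted lines (sensors, transducer kinases, chromatin mediators, fork proteins, p53 regulators and targets, cell cycle effectors). Filled bars are intervals with a value in every library of the list, which treated lists require of each interval; open bars are the rest. H2AFX has 5 control BCL6 intervals, and the inhibitor BCL6 panel is empty.

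Few control intervals sat on the gene start itself. In control STAT5, 6 of 69 covered it (8.7%, beside 6.22% at protein-coding genes): CDC25A, CHEK2, NBN, RAD50, RPA2 and TIMELESS, each with a value in library 2 only, from 2 to 4. In control BCL6, 1 of 57 did (1.75%, beside 5.73%), at MRE11A with 0 and 2. Most BCL6 intervals, 34 of 57 (59.6%), were centred more than 1000 bp upstream, beside 52.2% at protein-coding genes. In control STAT5 it was 32 of 69 (46.4%), beside 50.5%. By value, 35 of 57 BCL6 intervals (61.4%, beside 71.2%) and 40 of 69 STAT5 intervals (58%, beside 70.7%) had no value over 2. The median width of member intervals was 316 bp for BCL6 and 317 bp for STAT5, beside 305 bp in both lists.

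Inhibitor BCL6 intervals were absent from the windows of all 32 genes. The nearest lay 2.4 kb inside RAD1, the clamp subunit, beyond the 1000 bp limit, and was listed for BRIX1 with values of 2, 2 and 2. The next were 25.6 kb from RAD9A, 31.1 kb from RPA1, 44.4 kb from RPA2 and 96.3 kb from TOPBP1, and the median over the 32 genes was 513 kb. With 3.3% of protein-coding symbols in this list, the absence of 32 genes is near the background. In the whole list, 0 of 1652 intervals overlapped a control BCL6 peak, which limits them to places where the control list had nothing. Each of the 1652 also had a value in every library of the list, whereas control intervals could have theirs in a single library. This entry rule, the limit to such places, lower depth and less binding cannot be told apart.

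Other genes of the pathway, taken from 4 lists of 68 genes, stood closer to the background. The shares present were 75% for control BCL6, 83.8% for control STAT5 and 27.9% (19 of 68) for activator STAT5, beside the 73.9%, 74.9% and 26.1% of protein-coding symbols. By list, activator STAT5 held 4 of 18 clamp loader and fork genes, 5 of 16 break mediators, 5 of 20 p53 response genes and 5 of 14 mitotic entry genes. On control BCL6 peaks lay 4 of the 68 (5.88%), beside 7.43%. MCM4, a subunit of the replicative helicase, had activator STAT5 values of 9 and 3 on a control BCL6 peak of 2 and 8. CDK1, the kinase of mitotic entry, had 3 and 2 beside 2 and 5. RFC1, of a clamp loader, and GADD45B, a relative of GADD45A, both had 2 and 2 beside 3 and 0. MCM4 and CDK1 thus had values in both libraries of both groups, as PPM1D did among the members. BAX, a cell death gene of the p53 response list, had activator STAT5 values of 5 and 4 at -425 to -99 bp, off the shared list.

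Neighbouring genes shared intervals with 10 of the 32 members, so that an interval cannot be assigned to 1 gene there. No share over protein-coding symbols is given beside this count, which is a description only. Sharing is not particular to the members: the whole activator STAT5 list has 15937 pairs of interval and gene for 14047 intervals. Among activator STAT5 intervals this held for ATR (with RPL6P9), MDC1 (TUBB), RAD50 (IL5) and RPA1 (SMYD4). At ATR, MDC1 and RPA1, some or all control intervals were shared with these same neighbours too. Control intervals were also shared by ATM with NPAT, CHEK2 with HSCB, MRE11A with ANKRD49, RAD17 with AK6, TOPBP1 with TFP1 and TP53BP1 with MAP1A.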

How the data were processed

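The submitters' processing notes name Bowtie 0.12.7, CASAVA 1.8.2 and the build GRCh37. Neither peak caller, threshold nor depth is given in the sources used here. In 6 lists the authors deposited intervals with a whole-number value per interval and library, read here as a count of reads because intervals of 1 control library widen with it (control BCL6 library 1: median 291 bp at a value of 2 and 533 bp at 6), together with each interval's width and its distance from an Ensembl gene start. Other columns, widths and distances in bp, are as deposited. Lists are described by the libraries in their columns. In Python 3.11.15 with pandas 2.3.3, distances of both interval ends were recomputed in the direction of transcription, and overlap (at least 1 shared bp) and gaps (0 bases between is contact) were measured on distinct intervals. The overlap code was tested on simulated data. Symbols matched the RefSeq table (GRCh38.p14, used for names, gene types and promoter sequences only) for 26166 of 26333; a gene counts as present with 1 interval or more. All 32 members are described by role, in full where a treated list holds them; of the other pathway genes, those in a shared list are named, up to 4 a list. BAX was added after its values were seen. One gene of the other pathway lists is not reported here. Members and lists were chosen with earlier results of these data known. No test was made: an exact two-sided permutation test of 2 against 2 libraries cannot go below p = 0.333. Whether replicate libraries are separate cultures is not stated, so their spread may be technical.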

Additional observations from a re-analysis of the deposited data

How the results depend on the processing

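Counts of members depended on what made an interval count. Requiring a value in both control libraries left 5 members in control BCL6 and 8 in control STAT5; leaving out 1 control library gave 19 to 23 and 20 to 30. In activator STAT5 a minimum of 3 in both libraries left 1 member, and in 1 library alone 4 to 7; the window of 1000 bp around the start left 5 (15.6%, beside 14.5% of protein-coding symbols). Intervals on control BCL6 peaks fell to 1 when the peak needed both libraries. Intervals touching a control STAT5 peak rose to 5 at a gap of up to 100 bp and fell to 0 when the peak needed both libraries. The other counts of members stayed within 1.5 times their value. For control lists the minimum width of 50 bp could change nothing, because their narrowest interval was 250 bp. Counts of inhibitor BCL6 were 0 in each alternative. That was fixed in advance, because no alternative adds intervals to a list without members. Against genes with an interval in at least 1 separate list, the background shares were 86.2% in control BCL6, 87.4% in control STAT5, 30.4% in activator STAT5 and 3.84% in inhibitor BCL6. No paired analysis was possible because no result comes from a test. The running library numbers go through the 6 groups in the same order more than once, and the labels do not say whether this marks a shared batch; library 2 had a higher sum than library 1 over all intervals of each separate list, and the part of this in the members' values was not tested.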
